A study of Mus musculus with 6 samples.

Results

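The genes described here are 46 mouse nuclear receptor genes, chosen by name from a list, of 23044 genes with probes on both array designs of the study. The authors' deposited table holds 38 of them, and the other 8 were read from the scanner files alone. RNA came from transgenic SMA-GFP mice, which carry green fluorescent protein (GFP) under the promoter of the smooth muscle actin gene Acta2, and all cells were sorted as negative for CD45, a leukocyte marker, and CD31, an endothelial marker. Wound cells (SMA+++) were the high-reporter cells of wounds 7 days after injury and are labelled myofibroblast. Skin cells (SMA+) were the low-reporter cells of dermis and are labelled fibroblast-like cells. Each group had 3 arrays, with replicates 1 and 2 on array design 026655 and 1 array per group, called replicate 3 only as a name, on design 028005. The design text names a human array beside a whole-genome one, whereas all 6 samples are labelled as mouse and the probes carry mouse accessions.

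Nuclear receptors are transcription factors whose activity is set by small molecules, or that work as orphans without a settled ligand. They bind short DNA elements as single proteins, homodimers or heterodimers with a retinoid X receptor, and exchange corepressor for coactivator complexes when ligand binds. In skin they are known for the response to glucocorticoids, retinoids, vitamin D, thyroid hormone and sex steroids in fibroblasts, keratinocytes and hair follicles.

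The comparison asks which genes set apart wound cells with a high actin reporter from low-reporter cells of unwounded dermis. Reporter level and injury change together and cannot be told apart, and neither can a smaller share of expressing cells and less RNA per cell. No label ties the arrays to separate animals. A p-value here covers only the spread over these 6 samples, possibly technical, and their number limits the precision. Levels are given as the log2 of the processed signal relative to the 75th percentile of its array, so 0 is that percentile. The same probes ran higher on design 028005, which holds another set of probes, so levels are compared within a design, and differences are wound minus skin. Between 64.4% and 71.1% of spots were well above background on the wound arrays and between 65.2% and 72.6% on the skin arrays. Acta2, whose promoter drives the reporter, had levels of 6.56, 6.25 and 7.68 in wound replicates 1, 2 and 3 and 1.59, 1.79 and 3.08 in skin replicates 1, 2 and 3. Since this promoter set the sort, the value serves only as a check of the labels. Of 8 dermal fibroblast markers, 1 was lower in wound cells and none higher, with a median of 0.02. The lower one, Pdgfra, a growth factor receptor, differed by -1.33 (adjusted p = 0.00106), while the collagen genes Col1a1, Col1a2 and Col3a1 differed by 0.06, -0.01 and 0.04.

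Of the 46 receptors, 36 were well above background on all 6 arrays and 4 on none. For a test, the brightest probe had to be well above background on the 3 wound arrays, the 3 skin arrays or both, which 37 receptors met, Pgr by the skin arrays only. Wound cells differed from skin cells in 18 of the 37 (48.6%), at a Benjamini-Hochberg adjusted p under 0.05 in limma, a linear model with moderated variances and a term for the array design, against 33.5% of all 16684 genes tested. Of these, 6 receptors (16.2%) were higher in wound cells, against 17.3% of all genes, a share near the background. Another 12 (32.4%) were lower in wound cells, against 16.2% of all genes, and the difference between these shares was not tested. At 2-fold or more, where 20.1% of all genes were called, 5 receptors were higher, against 9.84% of all genes, and 8 were lower, against 10.3%. The median log2 difference was -0.25 over the 37 tested receptors and 0.02 over all tested genes. On design 026655 the values of wound and skin cells did not overlap for any of the 18 receptors, on replicates 1 and 2 only. They also did not overlap there for the uncalled Nr3c2, Rara, Rxrb, Rxrg, Thra, Ppara, Pparg, Nr2c1 and Nr2c2. A lack of overlap is therefore not particular to the called receptors, and its share over all genes was not computed. Each of the 18 kept its sign over all 3 array pairs, which the call itself makes likely.

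**Figure D1:**
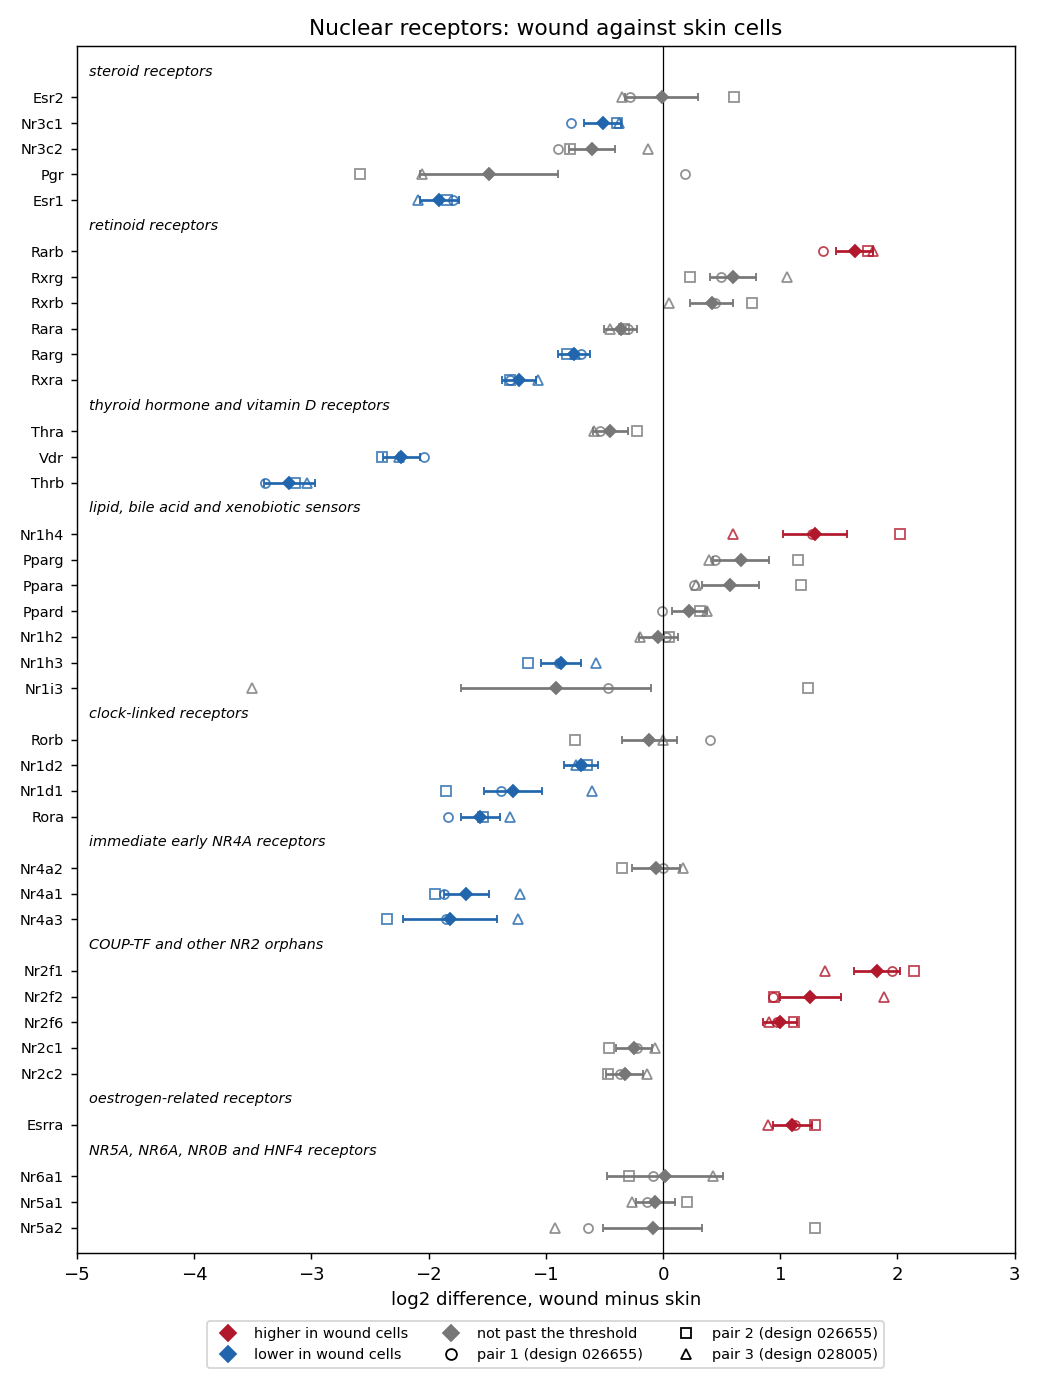
Log2 difference of wound minus skin cells for the 37 tested receptors, grouped by role. Diamonds are the fitted differences with their standard error (SE), open symbols are the 3 pairs of arrays, and colour marks the 6 receptors called higher, the 12 called lower and the 19 not past the threshold. The 3 called NR2 orphan receptors lie to the right of 0, and the called steroid, thyroid hormone, vitamin D, clock-linked and NR4A receptors lie to the left.

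The thyroid hormone and vitamin D receptors held the largest decreases among the 37 tested. Thrb, the thyroid hormone receptor beta, had levels of -3.19, -2.57 and -1.88 in wound replicates 1, 2 and 3, against 0.21, 0.57 and 1.15 in skin replicates 1, 2 and 3. The groups lay far apart on both designs, with differences of -3.26 on 026655 and -3.03 on 028005. Thrb was 9.11-fold lower (log2 -3.19, SE 0.22, adjusted p = 0.000217) by the model, SE being its standard error, and its other probe gave -3.104. Vdr, the receptor of the active form of vitamin D, had levels of -1.52, -1.89 and -0.97 in wound cells and 0.52, 0.51 and 1.28 in skin cells. Skin replicates 1 and 2 were almost equal, all wound values on that design lay below them, and Vdr was 4.69-fold lower (log2 -2.23, SE 0.16, adjusted p = 0.000257). Thra, the other thyroid hormone receptor, had 2.32, 2.40 and 3.62 in wound cells and 2.86, 2.63 and 4.20 in skin cells, with a difference of -0.45 that missed the threshold (adjusted p = 0.0658). It passed with quantile normalization (-0.56, adjusted p = 0.028) and with normexp (-0.55, adjusted p = 0.0086), and its second probe gave -0.48. Normexp is a background correction that adds an offset of 50 and was also followed by quantile normalization, so the 2 settings share that step. These calls for Thrb and Vdr held under each alternative that gives a test, the model with no design term included.

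Among steroid receptors, the oestrogen receptor alpha gene Esr1 showed the largest tested decrease. Its levels were -1.96, -2.22 and -0.88 in wound cells and -0.17, -0.38 and 1.21 in skin cells, with no overlap within a design. In wound cells Esr1 was 3.75-fold lower (log2 -1.91, SE 0.16, adjusted p = 0.000446). All 4 of its probes had negative differences, -1.91 for the brightest and -3.38, -2.84 and -1.42 for the others, of which the last missed the threshold (adjusted p = 0.0862) and that with -2.84 was well above background on 1 of 3 wound arrays. The probe with the difference of -3.38 was well above background on no wound array, and its signal was at least 5.59-fold lower there. Nr3c1, the glucocorticoid receptor, had 3.03, 3.32 and 4.28 in wound cells and 3.81, 3.71 and 4.65 in skin cells. These ranges did not overlap on design 026655, but the gap was small, and Nr3c1 was 1.43-fold lower (log2 -0.51, SE 0.16, adjusted p = 0.0487). The call was lost with the replicate pairs as a block (adjusted p = 0.0651), on design 026655 alone (adjusted p = 0.0905) and without any 1 of the 6 arrays, where the adjusted p lay between 0.0634 and 0.187. A second probe fell by 1.15 on the log2 scale (adjusted p = 0.0284), and the mean of all probes gave -0.83.

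The other steroid receptors did not pass. Nr3c2, the mineralocorticoid receptor, had -4.70, -4.54 and -3.06 in wound cells and -3.81, -3.75 and -2.93 in skin cells, a difference of -0.61 (SE 0.20, adjusted p = 0.0574). It came from design 026655, where the difference was -0.84 (adjusted p = 0.0256 on that design alone), beside -0.13 on design 028005. Pgr, the progesterone receptor, had -4.26, -6.56 and -3.74 in wound cells and -4.45, -3.98 and -1.68 in skin cells. Wound replicate 1 lay within the skin range and wound replicate 2 was not well above background, so the difference of -1.48 had an SE of 0.59 (adjusted p = 0.102). Without wound replicate 1 the fit passed the threshold (-2.22, adjusted p = 0.0036), but 1 of the 2 wound arrays left was then not well above background, so that size is not a measured one. Esr2, the oestrogen receptor beta, had 1.81, 2.92 and 2.65 in wound cells and 2.09, 2.32 and 3.00 in skin cells, which overlapped (difference -0.01, SE 0.31, adjusted p = 0.981).

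Retinoid receptors moved in both directions. Rarb, the retinoic acid receptor beta, whose gene is itself a textbook target of retinoic acid, had -1.05, -0.97 and 0.23 in wound cells and -2.42, -2.71 and -1.56 in skin cells. Wound values were higher on both designs without overlap, and Rarb was 3.11-fold higher (log2 1.64, SE 0.16, adjusted p = 0.000678). A second probe rose by 1.14 (adjusted p = 0.0033). The remaining probe, with another transcript accession, was well above background on no wound array and on 2 skin arrays and was not tested. Its signal went the other way in all 3 pairs (-1.96, -1.53 and -0.89), sizes that were not measured because the wound signals were not well above background. The Rarb call was lost where all 3 probes were averaged (0.44, adjusted p = 0.0996) and in the authors' deposited table (0.41, adjusted p = 0.1496). Rarg, the gamma form that is abundant in epidermis, had 2.48, 2.37 and 3.95 in wound cells and 3.18, 3.19 and 4.70 in skin cells and was 1.69-fold lower (log2 -0.76, SE 0.14, adjusted p = 0.00778). Rara, the alpha receptor, had 2.22, 2.20 and 3.48 in wound cells and 2.52, 2.53 and 3.93 in skin cells, a difference of -0.36 (adjusted p = 0.0913) that passed with quantile normalization (-0.47, adjusted p = 0.0392) and normexp (-0.50, adjusted p = 0.0138).

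The promoter of Rarb is printed because it holds the retinoic acid response element through which the receptors are known to regulate this gene. The sequence is the 250 bases before the RefSeq start on the minus strand, chr14:16575477-16575726 in GRCm38.p6, and the capitals mark the direct repeat GGTTCA, any 5 bases, AGTTCA.
Rarb: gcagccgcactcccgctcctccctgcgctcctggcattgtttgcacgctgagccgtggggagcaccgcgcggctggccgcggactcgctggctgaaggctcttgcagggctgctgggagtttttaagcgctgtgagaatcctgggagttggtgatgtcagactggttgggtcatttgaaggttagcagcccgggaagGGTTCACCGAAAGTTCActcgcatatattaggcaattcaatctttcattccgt
The repeat begins at position -53, counted from -1 at the base before the start. Of 32851 RefSeq windows of this length, searched on both strands, 2 (0.00609%) held the repeat, and the Rarb window was 1 of them. The letters searched are those of the known Rarb element itself, so the match in Rarb was set in advance. A match in letters is a description and not a test of binding.

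Rxra, a retinoid X receptor and shared heterodimer partner, had -2.71, -2.72 and -1.84 in wound cells and -1.40, -1.41 and -0.77 in skin cells. Replicates 1 and 2 of each group were almost equal, and in wound cells it was 2.34-fold lower (log2 -1.23, SE 0.14, adjusted p = 0.0013). Its other probe differed by -0.31 (adjusted p = 0.268), and the mean of both was -0.77. Rxrb, the beta form, had 3.11, 3.14 and 3.81 in wound cells and 2.66, 2.38 and 3.76 in skin cells, and the difference of 0.42 did not pass (adjusted p = 0.132). Rxrg, the gamma form, had 1.02, 0.78 and 3.61 in wound cells and 0.52, 0.55 and 2.55 in skin cells on its brightest probe, a difference of 0.59 (adjusted p = 0.0616, or 0.0491 without wound replicate 2). The second Rxrg probe went the other way, with -4.23, -3.95 and -2.74 in wound cells and -1.46, -1.51 and 0.08 in skin cells, and fell by 2.68. The direction of Rxrg therefore rests on the probe, with -1.04 by the mean of both (adjusted p = 0.00266) and -1.07 in the authors' deposited table (adjusted p = 0.00291).

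**Figure D2:**
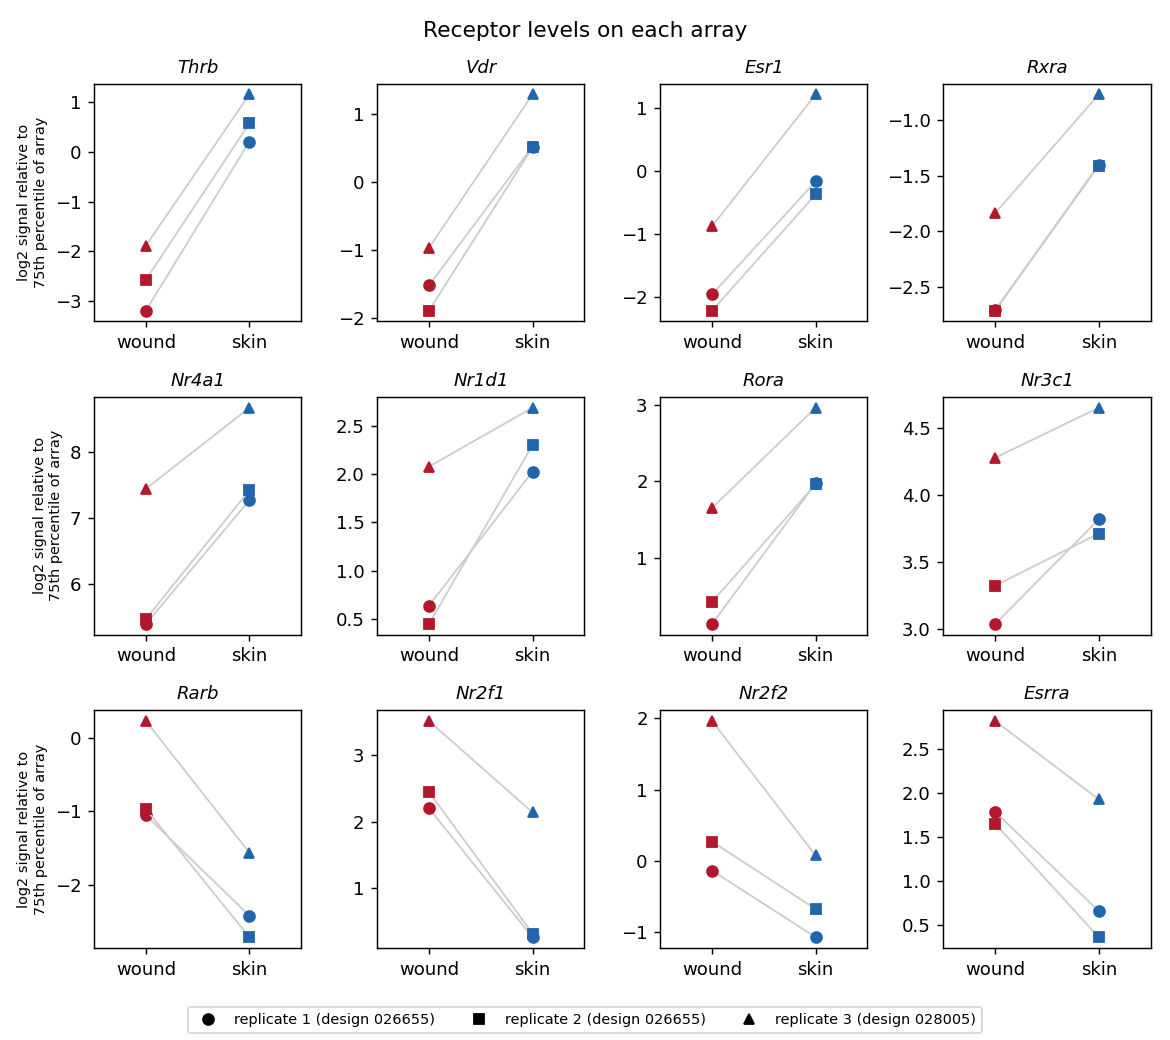
Level of 12 receptors on each of the 6 arrays, as the log2 signal relative to the 75th percentile of the array, with wound cells left and skin cells right in each panel. Lines join arrays of the same replicate name, circles and squares are design 026655 and triangles are design 028005. Every line falls toward wound cells for the 8 receptors from Thrb to Nr3c1, and every line is higher in wound cells for Rarb, Nr2f1, Nr2f2 and Esrra.

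The orphan receptors of the NR2 subfamily supplied 3 of the 6 receptors that were higher in wound cells. Nr2f1, known as COUP-TFI, a regulator of mesenchymal and neural development, had 2.20, 2.45 and 3.52 in wound cells and 0.25, 0.30 and 2.14 in skin cells. The wound values were above the skin values on each design, and Nr2f1 was 3.55-fold higher (log2 1.83, SE 0.19, adjusted p = 0.000941), with 1.98 by a second probe. Nr2f2, known as COUP-TFII and a regulator of vein identity and mesenchyme, had -0.14, 0.27 and 1.96 in wound cells and -1.07, -0.68 and 0.08 in skin cells. It was 2.39-fold higher (log2 1.26, SE 0.26, adjusted p = 0.0129), by 0.94 on design 026655 and 1.88 on design 028005. Nr2f6, a related repressor, had 2.92, 3.104 and 4.12 in wound cells and 1.95, 1.99 and 3.22 in skin cells. It was 1.997-fold higher (log2 0.998, SE 0.14, adjusted p = 0.00314), just under the 2-fold cut used above. Mural cell markers, which mark pericytes and vascular smooth muscle, were also higher in wound cells in 7 of 9 cases and lower in none. Their summed signal, in units of the 75th percentile, was 70.9, 91.1 and 173 in wound cells and 20.7, 29.4 and 35.04 in skin cells, and their part in the NR2F differences was not tested. The testicular receptors did not pass. Nr2c1 differed by -0.25 (adjusted p = 0.269) and Nr2c2 by -0.32 (adjusted p = 0.165). Nr2e1 and Nr2e3, known from brain and retina, were well above background on no array.

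Esrra, the oestrogen-related receptor alpha and a regulator of mitochondrial genes, was the remaining orphan higher in wound cells. It had 1.79, 1.65 and 2.82 in wound cells and 0.66, 0.36 and 1.93 in skin cells, without overlap, and was 2.15-fold higher (log2 1.10, SE 0.17, adjusted p = 0.00373). Esrrb was well above background on 2 wound and 2 skin arrays and was not tested, with levels of -4.29, -5.40 and -3.60 in wound cells and -4.80, -5.52 and -2.91 in skin cells. Esrrg was well above background on wound replicate 3 alone and was not tested.

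NR4A receptors are orphan immediate early genes that respond within a short time to growth factors and stress. Nr4a1, known as NUR77, had 5.40, 5.48 and 7.44 in wound cells and 7.27, 7.42 and 8.67 in skin cells. The skin values lay above the wound values on each design, and in wound cells it was 3.2-fold lower (log2 -1.68, SE 0.19, adjusted p = 0.00122). Nr4a3, known as NOR1, had -5.07, -4.32 and -3.43 in wound cells and -3.22, -1.97 and -2.19 in skin cells. It spread more within each group and was 3.52-fold lower (log2 -1.82, SE 0.40, adjusted p = 0.0161), with a smaller difference of -0.86 under normexp, and the call was lost without wound replicate 1 (-1.52, adjusted p = 0.0579). Nr4a2, known as NURR1, had 3.12, 3.32 and 4.23 in wound cells and 3.12, 3.67 and 4.05 in skin cells, which overlapped (difference -0.06, SE 0.20, adjusted p = 0.849). Of 20 other early response genes tested, 10 were lower in wound cells and 1 was higher, against 16.2% and 17.3% of all genes, with a median of -0.68. Among them were Dusp1, a phosphatase of MAP kinases, at -1.68 (adjusted p = 0.00036), and Fos, a component of AP-1, at -1.93 (adjusted p = 0.000546). The zinc finger factor Egr1 differed by -1.34 (adjusted p = 0.00101). The single higher gene, Klf6, differed by 0.48 (adjusted p = 0.0443), a call that was lost with the replicate block (adjusted p = 0.0607) and without any 1 of the 6 arrays (adjusted p from 0.0681 to 0.171). The sources used here do not give how long each tissue was handled before sorting, and its part was not tested.

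The promoter of Nr4a3 is shown for its cyclic AMP response half-sites, TGACGT, the element of the CREB factors that textbooks place upstream of the NR4A genes. The window is the 250 bases before the RefSeq start on the plus strand, chr4:48045055-48045304 in GRCm38.p6, with the half-sites in capitals.
Nr4a3: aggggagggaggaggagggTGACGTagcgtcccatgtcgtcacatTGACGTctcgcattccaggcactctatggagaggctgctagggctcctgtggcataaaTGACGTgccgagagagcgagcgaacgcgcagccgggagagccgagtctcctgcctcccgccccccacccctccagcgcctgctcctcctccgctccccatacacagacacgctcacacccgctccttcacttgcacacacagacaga
The half-sites begin at positions -231, -205 and -147. On either strand, 6.47% of all windows held this motif, as did 3 of the 63 windows of the receptors, those of Nr4a3, Nr2c1 and Nr2e1. The receptor half-site AGGTCA was in 11 of the 63 receptor windows and in 14.0% of all windows, and the E-box CACGTG of clock factors in 5 of the 63 and in 6.02% of all windows.

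Receptors that form an arm of the circadian clock were lower in wound cells in 3 of 4 cases, where 16.2% of all genes were. Nr1d1, or REV-ERB alpha, a repressor of the clock gene Arntl, had 0.64, 0.45 and 2.08 in wound cells and 2.02, 2.30 and 2.68 in skin cells. It was 2.43-fold lower (log2 -1.28, SE 0.25, adjusted p = 0.00981), by -1.62 on design 026655 and -0.61 on design 028005. Nr1d2, REV-ERB beta, had 1.96, 2.13 and 3.20 in wound cells and 2.66, 2.78 and 3.94 in skin cells and was 1.62-fold lower (log2 -0.70, SE 0.14, adjusted p = 0.0126). The Nr1d2 call was lost without skin replicate 1 (adjusted p = 0.0524) and without wound or skin replicate 3 (adjusted p = 0.053). Leaving out either replicate 3 gives the same fit as design 026655 alone. The Nr1d2 difference stayed between -0.74 and -0.67 in those settings. Rora, an activator that binds the same elements, had 0.14, 0.43 and 1.66 in wound cells and 1.97, 1.96 and 2.96 in skin cells. The wound values were below the skin values on each design, and Rora was 2.94-fold lower (log2 -1.56, SE 0.17, adjusted p = 0.000964), while a second probe gave -0.69 (adjusted p = 0.164). Rorb had -2.84, -3.38 and -2.08 in wound cells and -3.24, -2.63 and -2.08 in skin cells and did not differ past the threshold (difference -0.12, SE 0.23, adjusted p = 0.732), on a brightest probe that was not the same on the 2 designs.

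Other genes of the clock differed widely, with 11 of 18 lower and 2 higher in wound cells, against 16.2% and 17.3% of all genes, and a median of -0.94. Dbp, a PAR-domain output factor of the clock, had 2.98, 2.72 and 4.14 in wound cells and 5.40, 4.91 and 6.53 in skin cells and was 5.04-fold lower (log2 -2.33, SE 0.19, adjusted p = 0.000349). Its relative Hlf fell by 2.32 (adjusted p = 0.000247) and the repressor Ciart fell by 3.02 (adjusted p = 0.000527; -1.65 with normexp, well above background on 2 of 3 wound arrays). The higher ones were Arntl, at 1.63, 1.48 and 1.76 in wound cells and 0.40, 0.60 and -0.73 in skin cells (log2 1.54, SE 0.31, adjusted p = 0.0115), and Npas2, whose protein can stand in for CLOCK, (log2 2.36, SE 0.36, adjusted p = 0.00407), whose difference was 0.64 with normexp and which was well above background on 1 of 3 skin arrays. The Arntl difference was 1.06 on design 026655 and 2.49 on design 028005. The sources used here do not give the time of day at which tissue was taken, and its part was not tested.

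Of 8 receptors that sense lipids, bile acids and foreign compounds, 7 were tested, of which 1 was higher and 1 lower in wound cells by its brightest probe. Nr1h3, the liver X receptor (LXR) alpha, which senses oxysterols, had -0.59, -0.84 and 0.79 in wound cells and 0.30, 0.32 and 1.36 in skin cells. It was 1.83-fold lower (log2 -0.87, SE 0.17, adjusted p = 0.0102), a call lost without skin replicate 1 (adjusted p = 0.0532), and its other probe gave -1.14. Nr1h2, LXR beta, had 2.73, 2.48 and 3.63 in wound cells and 2.71, 2.43 and 3.82 in skin cells, which overlapped (difference -0.04, adjusted p = 0.869). Nr1h4, the bile acid receptor FXR, was dim, with -3.29, -2.75 and -2.93 in wound cells and -4.56, -4.77 and -3.53 in skin cells. It was 2.46-fold higher (log2 1.30, SE 0.27, adjusted p = 0.014), but the difference was 0.61 under normexp and 0.60 on design 028005, and the call was lost without skin replicate 1 (adjusted p = 0.0531). Nr1i3, the constitutive androstane receptor, had -3.39, -2.17 and -1.46 in wound cells and -2.92, -3.40 and 2.04 in skin cells. Skin replicate 3 stood far above the other skin arrays, and the difference of -0.91 had an SE of 0.81 (adjusted p = 0.428). Nr1i2, the pregnane X receptor, was well above background on 1 skin array and on no wound array and was not tested.

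None of the 3 peroxisome proliferator-activated receptors (PPARs), which sense fatty acids, passed on the brightest probe. Pparg, the regulator of fat cell formation, had -0.88, -0.95 and 0.61 in wound cells and -1.32, -2.11 and 0.22 in skin cells, a difference of 0.66 (SE 0.24, adjusted p = 0.0799) that passed under normexp (0.56, adjusted p = 0.0364). Each wound value was above its skin counterpart, while skin replicate 2 differed from skin replicate 1 by -0.79. Of 6 adipocyte markers, 2 could be tested and neither was called, with Adipoq at 0.33 (adjusted p = 0.501), and Cidec was well above background on no array. Their summed signal was 0.10, 0.12 and 0.25 times the 75th percentile in wound cells and 0.17, 0.12 and 0.29 times in skin cells. Ppard had 1.57, 1.69 and 2.40 in wound cells and 1.58, 1.38 and 2.03 in skin cells, which overlapped (difference 0.23, adjusted p = 0.298). Ppara, known for fatty acid oxidation, had -0.09, 0.02 and 0.55 in wound cells and -0.35, -1.15 and 0.27 in skin cells by its brightest probe, a difference of 0.57 (adjusted p = 0.125). A second Ppara probe, well above background on all arrays, was lower in wound cells, with a difference of -1.17 (adjusted p = 0.00744). The remaining probe was also called lower (adjusted p = 0.00634), but it was well above background on 1 of the 3 wound arrays, so the size of its difference was not measured. By the mean of all probes Ppara gave -0.83 (adjusted p = 0.0207), and in the authors' deposited table -0.86 (adjusted p = 0.0183), so its direction also rests on the probe.

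**Figure D3:**
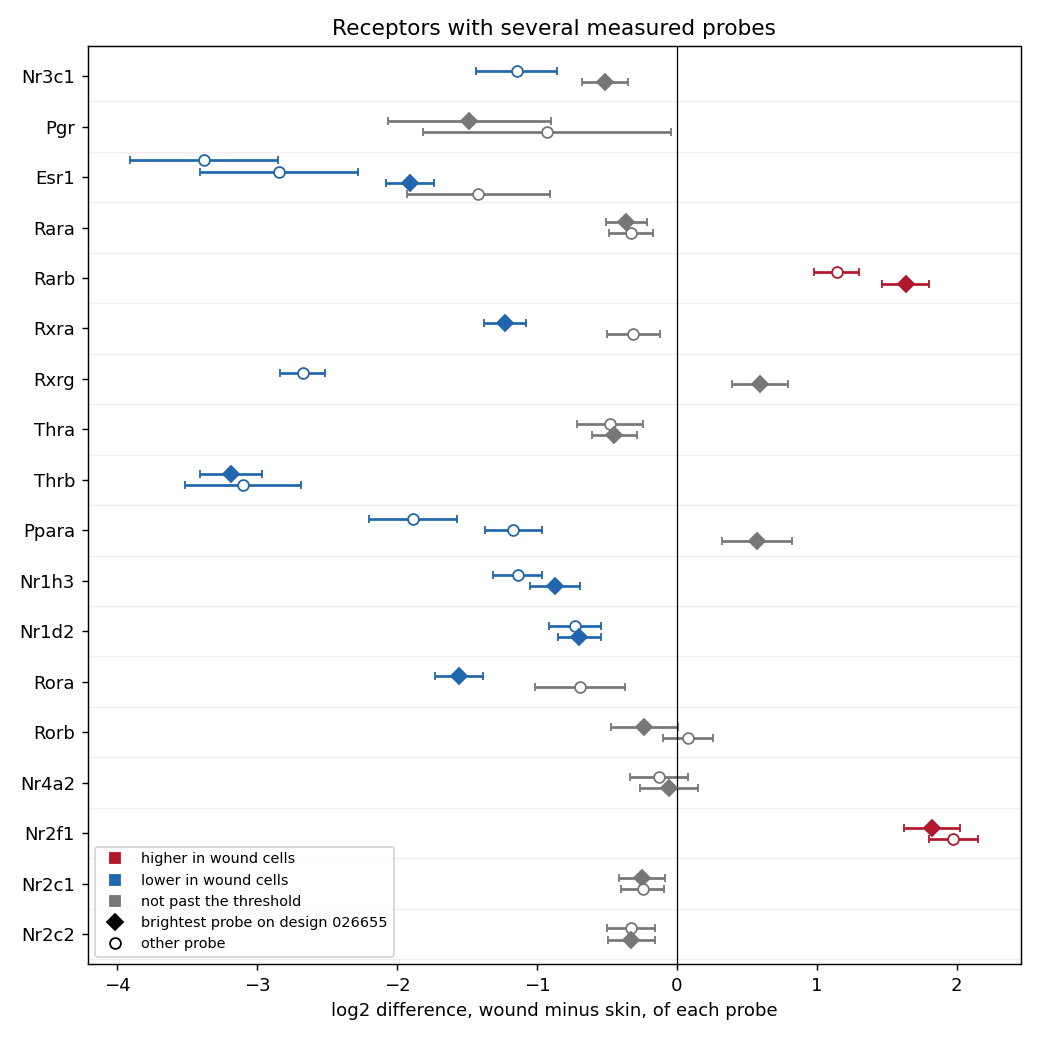
Log2 difference of wound minus skin cells for each tested probe of the 18 receptors with several tested probes, with SE. Diamonds are the brightest probe on design 026655, circles are the other probes, and colour marks the call over all 25791 probes on both designs, by which the brightest Nr3c1 probe is grey and its other probe coloured. Rxrg, Ppara and, without a call, Rorb have probes on both sides of 0, and the tested probes of Esr1, Thrb, Nr1h3, Nr1d2, Rarb and Nr2f1 lie on 1 side. The untested Rarb probe, whose signal was lower in wound cells, is not drawn.

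The 46 receptors had 73 probes in all, and 22 receptors had more than 1. Among the 18 with several tested probes, 2 (Rxrg and Ppara) had probes of opposite sign with a call, and 6 (those 2, Nr3c1, Esr1, Rxra and Rora) had called and uncalled probes side by side. For reference, 28.5% of all 25791 probes tested were called. Which transcript each probe detects was not analysed here.

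The receptors of the NR5A, NR6A, NR0B and HNF4 families, known from steroid-producing organs, germ cells and liver, gave no call. Nr5a1 had -2.37, -2.03 and -1.38 in wound cells and -2.23, -2.24 and -1.11 in skin cells (difference -0.07, adjusted p = 0.788). Nr5a2 differed by -0.09 with an SE of 0.42 (adjusted p = 0.892), and Nr6a1 by 0.02 with an SE of 0.50 (adjusted p = 0.982). Both were dim, with levels between -5.38 and -3.34 on all arrays. Nr0b1 and Hnf4a were well above background on no array, Nr0b2 on 1 wound and 1 skin array, and Hnf4g on 1 skin array, so none was tested.

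Related receptors that share a chromosome are given side by side here. On chromosome 11, Thra, Rara and Nr1d1 differed by -0.45, -0.36 and -1.28. On chromosome 14, their paralogues Thrb, Rarb and Nr1d2 differed by -3.19, 1.64 and -0.70, so that Rarb was higher in wound cells and Thrb lower. These values are given as a description, and no difference between paralogues was tested.

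Keratinocyte markers stood apart in the same direction as the 12 receptors called lower, while 6 receptors were called higher and 19 were not past the threshold. Of those called lower, keratinocytes or hair follicles are known to express Thrb, Vdr, Esr1, Rora, Rxra and Rarg. That set was picked from the lower receptors alone and is not complete. Of 8 keratinocyte markers, 7 were lower in wound cells and none higher, with a median of -5.13, and Krt1 was well above background on no wound array. With Krt1 at its bound the median was -4.45. Their summed signal was 3.90, 5.41 and 8.98 times the 75th percentile in wound cells and 21.1, 48.9 and 38.4 times in skin cells. Skin replicate 2 minus skin replicate 1 was 1.71 and 2.20 for the suprabasal keratins Krt10 and Krt1, and -0.88 and -1.23 for the basal keratins Krt5 and Krt14. Between the same arrays, Vdr differed by -0.01, Rxra by -0.01, Rora by -0.01, Rarg by 0.00, Esr1 by -0.21 and Thrb by 0.36. Among the other receptors called lower, Nr4a3 differed by 1.25, Nr1d1 by 0.28, Nr4a1 by 0.15, Nr1d2 by 0.12, Nr1h3 by 0.02 and Nr3c1 by -0.11. The keratins themselves moved in both directions, and the part of keratinocyte RNA in the receptor differences was not tested. Of the leukocyte markers 3 of 8 were lower and none higher in wound cells, of the Schwann cell markers 4 of 6 were lower, of the endothelial markers 2 of 5 were higher, and of the melanocyte markers 1 of 3 was lower. Skeletal muscle markers gave 1 of 2 higher, and all 6 wound myofibroblast markers were higher.

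**Figure D4:**
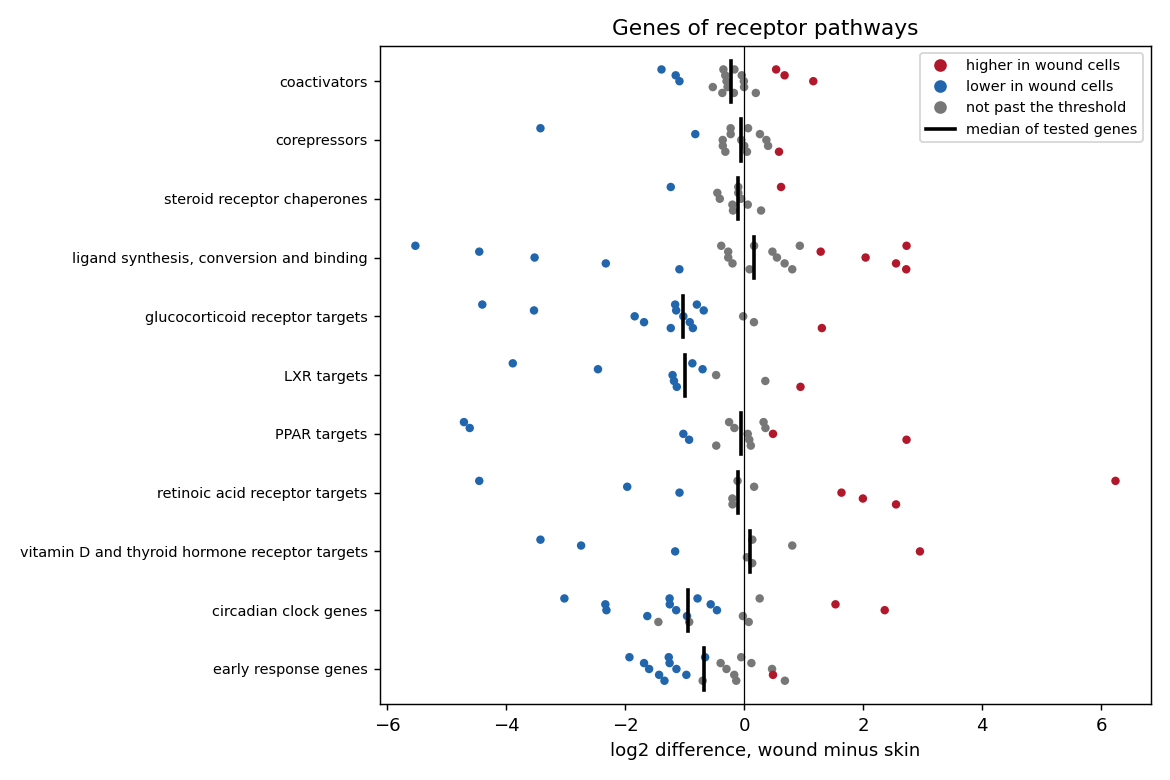
Log2 difference of wound minus skin cells for each tested gene of 11 lists tied to nuclear receptors, a row per list, with the median as a bar and the call as colour. Glucocorticoid receptor targets, LXR targets and clock genes have medians of -1.02, -1.0 and -0.94, and coactivators, corepressors and chaperones have medians of -0.23, -0.05 and -0.10.

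Coactivators are the proteins that receptors recruit to activate genes. Of the 18 genes listed here as coactivators, not all with that role settled, 3 were higher and 3 lower in wound cells. This share was near the 33.5% of all genes called, and the median was -0.23. For this list and the lists that follow, 17.3% of all genes were higher and 16.2% lower. The steroid receptor coactivators Ncoa1 and Ncoa3 fell by 1.09 (adjusted p = 0.00416) and 1.15 (adjusted p = 0.00383). The coactivator of mitochondrial genes Ppargc1a was higher (log2 1.16, SE 0.27, adjusted p = 0.0201), while Ppargc1b was lower (log2 -1.39, SE 0.19, adjusted p = 0.00262), both dim, the second well above background on 1 of 3 wound arrays, and at 0.43 and -0.32 with normexp, where the second was no longer called (adjusted p = 0.0746). Carm1, an arginine methyltransferase, and Trip12 were higher by 0.54 and 0.68 (adjusted p = 0.0364 and 0.0166). The Ppargc1a call was lost without wound replicate 1 or 2, that of Trip12 without skin replicate 1 or either replicate 3, and that of Carm1 without any array but wound replicate 2. Of 15 corepressors, 1 was higher and 2 lower. Hr, the hairless corepressor of the thyroid hormone and vitamin D receptors, had -1.16, -1.02 and -0.36 in wound cells and 2.17, 2.42 and 3.14 in skin cells and fell by 3.43 on the log2 scale (SE 0.15, adjusted p = 8.32e-05). Hr is also a known target of thyroid hormone. Gps2 fell by 0.82 (adjusted p = 0.0111, or 0.0563 without skin replicate 1), and Nsd1 was higher by 0.59 (adjusted p = 0.0491, or 0.0662 with the replicate block), a call also lost without replicate 1 or 2 of either group. Of 11 chaperones of steroid receptors, Stip1 was higher by 0.62 (adjusted p = 0.0231, lost without wound replicate 1 or either of skin replicates 1 and 2). The immunophilin Fkbp5, itself induced by glucocorticoids, fell by 1.23 (adjusted p = 0.00277).

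Genes known as glucocorticoid receptor targets were lower in wound cells in 12 of 15 cases and higher in 1, with a median of -1.02 against 0.02 over all genes. Zbtb16, a transcriptional repressor, had -2.19, -1.52 and -0.50 in wound cells and 2.46, 2.59 and 3.96 in skin cells. It was 21.2-fold lower (log2 -4.40, SE 0.21, adjusted p = 9.43e-05). Tsc22d3, the leucine zipper protein GILZ, had 2.58, 2.34 and 3.62 in wound cells and 6.27, 5.94 and 6.93 in skin cells and was 11.6-fold lower (log2 -3.53, SE 0.18, adjusted p = 0.000105). Dusp1 also belongs to the early response genes above, and Per1, also a clock gene, fell by 1.14 (adjusted p = 0.00221). Pdk4, a kinase that restrains pyruvate use and is a target of PPARs as well, fell by 1.02 (adjusted p = 0.0102). The stress-response gene Ddit4 was the 1 that was higher (log2 1.31, SE 0.16, adjusted p = 0.00176). Hsd11b1, which regenerates active glucocorticoid inside cells and was chosen after its value was seen, had -0.62, -0.06 and 0.83 in wound cells and 2.27, 2.07 and 2.79 in skin cells and was 5.02-fold lower (log2 -2.33, SE 0.22, adjusted p = 0.000604).

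Genes of the retinoic acid pathway were called in both directions. Stra6, the membrane receptor through which cells take up retinol, had 0.29, 1.36 and 1.79 in wound cells and -5.80, -5.54 and -3.95 in skin cells. It was 75.8-fold higher (log2 6.24, SE 0.32, adjusted p = 0.000108), detected on 2 of the 3 skin arrays, and 4.16 on the log2 scale with normexp. Aldh1a3, which makes retinoic acid, was 6.61-fold higher (log2 2.72, SE 0.14, adjusted p = 0.000108), whereas its relative Aldh1a1 was 11.5-fold lower (log2 -3.52, SE 0.26, adjusted p = 0.000264). Cyp26b1, which degrades retinoic acid, had 1.97, 2.52 and 4.24 in wound cells and 7.04, 6.80 and 8.26 in skin cells and was 21.9-fold lower (log2 -4.45, SE 0.23, adjusted p = 0.000108). Of 11 tested target genes of the receptors, Rarb included, 4 were higher and 3 lower, with a median of -0.11. Among the lower ones, Meis1 and Rarres2 fell by 1.09 and 1.97 (adjusted p = 0.0017 and 0.00385). Crabp2 and Dhrs3, which bind and convert retinoids, differed by 0.17 and -0.20 (adjusted p = 0.68 and 0.329), and Cyp26a1 was not tested. Over all ligand-handling genes, 5 of 21 tested were higher and 5 lower, with a median of 0.17. Cyp27a1, which oxidises vitamin D precursors and cholesterol, was well above background on no wound array and was at least 19.0-fold lower there (adjusted p = 5.67e-05).

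Targets of LXR were lower in 7 of 10 tested cases and higher in 1, with a median of -1.0, Nr1h3 itself being among the 7. Apoe, the lipid carrier apolipoprotein E, had 0.98, 0.96 and 2.39 in wound cells and 5.25, 4.41 and 6.34 in skin cells and was 14.8-fold lower (log2 -3.89, SE 0.24, adjusted p = 0.000156). Pltp, a phospholipid transfer protein, and Mylip, a ligase that degrades the LDL receptor, fell by 2.46 and 1.13 (adjusted p = 0.000436 and 0.00194). The cholesterol exporter Abca1, chosen after its value was seen, fell by 1.20 (adjusted p = 0.00485), and the phospholipid enzyme Lpcat3 was higher by 0.95 (adjusted p = 0.00487). Targets of the PPARs split, with 2 of 14 higher and 4 lower and a median of -0.05. The lipid droplet gene Plin4 was 26.2-fold lower (log2 -4.71, SE 0.40, adjusted p = 0.000429). Ucp3, a mitochondrial carrier, fell by 0.93 (adjusted p = 0.00671) with -0.34 by the mean of its probes (adjusted p = 0.164). Fabp4, a fatty acid binding protein, had 3.24, 3.36 and 4.40 in wound cells and 0.10, 0.76 and 1.95 in skin cells and was 6.63-fold higher (log2 2.73, SE 0.22, adjusted p = 0.000362). Cpt1a, which brings fatty acids into mitochondria, was higher by 0.48 (adjusted p = 0.0483), a call lost with the replicate block (adjusted p = 0.0565) and without any 1 array.

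Targets of the vitamin D and thyroid hormone receptors gave 1 higher and 3 lower genes of 8 tested, with a median of 0.09. Spp1, the matrix protein osteopontin, was 7.76-fold higher (log2 2.96, SE 0.26, adjusted p = 0.000512). The lower genes were Hr, described above, Klf9, at -1.16 (adjusted p = 0.00149), and S100g, a calcium-binding protein. S100g was well above background on no wound array and at least 2.99-fold lower there (adjusted p = 0.0404, or 0.0697 with the replicate block). The S100g call was lost without either replicate 3 (adjusted p = 0.054) and without wound replicates 1 or 2 or skin replicate 2. Cyp24a1, the vitamin D degrading enzyme used as a readout of Vdr activity, was among the 4 genes not tested, as was the deiodinase Dio1. Dio3, which inactivates thyroid hormone, differed by 0.81 (adjusted p = 0.0533).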

How the data were processed

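The 6 samples were single-colour (Cy3) Agilent arrays, 3 of wound cells and 3 of skin cells, on 2 array designs. Per the labels, total RNA was isolated with Trizol and labelled with a low-input kit, starting from about 50 ng per the series' design text. Spots were extracted by Agilent Feature Extraction 10.7.3.1, and probe annotation is on build mm9, per the file headers. Each deposited scanner file gives intensity on a linear scale, of which the processed signal is background-subtracted, with flags for spots well above background, saturated (0 on each array) or outlying. The deposited gene table joins both designs and was made in GeneSpring 14.5, per the submitters' processing notes. Its scale is not stated, and its differences between arrays of a pair matched log2 differences of the scanner values with slopes of 1.00, 1.00 and 0.973, so the authors' deposited values were taken as log2 with each gene centred. Its column medians were -0.28, -0.27 and -0.23 for wound replicates 1, 2 and 3 and -0.21, -0.25 and -0.25 for skin replicates 1, 2 and 3.

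Control and outlier spots were left out, spots of a probe were averaged, and the log2 processed signal was set relative to the 75th percentile of its array. Probes were named by gene identifier through the authors' table (64 of the 73 receptor probes), otherwise by accession in a RefSeq name table of GRCm38.p6 (9 probes), in place of gene names in the scanner files, which they do not carry. Per gene and design the brightest probe was tested with limma 3.58.1 in R 4.3.3 (lmFit and eBayes, design as a fixed term, 3 residual degrees of freedom) over 16684 genes, with Benjamini-Hochberg adjustment. Each design was 1 slide with both groups on it. A bound sets the detected group against the higher of the probe's signal and the lowest signal well above background. Deviations of same-numbered wound and skin arrays from their group means correlated at 0.34, 0.19 and 0.37 across genes, values that hold the shift between designs (0.153 for pair 1 within design 026655), so the numbers, taken from the labels for design 026655, were also used as a block. The normexp alternative used median in place of mean spot signals, which the files do not hold, and ended with quantile normalization within each design. The script was tested on simulated data. Promoter windows are RefSeq's. Other tools were Python 3.11.15, pandas 2.3.3 and matplotlib 3.10.9.

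The receptors and all gene lists were chosen with earlier results of these data known. All receptors are named. Of each other list, up to 3 genes per direction with the lowest adjusted p were named, as were genes of several lists and genes said to be chosen after their values were seen, except for a few listed genes that are not reported here.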

Additional observations from a re-analysis of the deposited data

How the results depend on the processing

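Of the 18 called receptors, 5 (Esr1, Nr2f1, Nr4a1, Thrb and Vdr) kept their call under every alternative that gives a test, 12 kept it under every one with a term for the design or the replicate block (those 5, Esrra, Nr1d1, Nr2f2, Nr2f6, Rarg, Rora and Rxra), and 0 changed direction. With no design term 1931 genes were called in place of 5585, 2 receptors higher and 5 lower, and 9 listed genes higher and 20 lower in place of 20 and 54, since the shift between designs then enters the spread. An adjusted p under 0.01 left 3163 genes and 12 listed genes higher. Leaving out each array in turn gave 3645 (without skin replicate 1) to 4975 genes. Leaving out wound or skin replicate 3 gave the same fit, that of design 026655 alone (4506 genes), since the design term takes up the array left. The replicate block gave 5514 genes and ended the calls of Nr3c1, Cpt1a, Klf6, Nsd1 and S100g among the genes named, and no other. Directions of receptors that were not called turned in 10 cases. Rxrg gave -1.04 and Ppara -0.83 by the mean of probes, and -1.07 and -0.86 in the authors' deposited table. On design 026655 alone, Esr2 gave 0.16, Nr1h2 0.035, Nr1i3 0.38, Nr5a1 0.033, Nr5a2 0.33 and Nr6a1 -0.19. Nr5a1 gave 0.020 with quantile normalization, Nr5a2 0.038 with normexp, Nr6a1 -0.024 with the percentile over detected probes and -0.012 in the authors' deposited table, and Nr4a2 0.17 on design 028005. Leaving out 1 array in turn gave -0.38 to 0.26 for Esr2, -0.14 to 0.035 for Nr1h2, -1.63 to 0.38 for Nr1i3, -0.27 to 0.072 for Rorb, -0.18 to 0.13 for Nr4a2, -0.19 to 0.033 for Nr5a1, -0.52 to 0.33 for Nr5a2 and -0.36 to 0.51 for Nr6a1. The cause of these turns was not tested. Other scalings moved the median of all genes by less than 0.1 on the log2 scale. Each of them sets the arrays to a common percentile or distribution, so this median could not show a shift of all genes between the groups.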
